A study of Mus musculus with 2 samples.

Results

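Wnt proteins are secreted, lipid-modified ligands that bind frizzled receptors at the cell surface. With the co-receptors Lrp5 and Lrp6 they stabilise beta-catenin, and through other receptors they steer cell polarity and movement. Secreted Sfrp proteins bind Wnts through a domain like that of the frizzleds, and Dkk proteins mostly act by occupying Lrp5 and Lrp6. In the developing heart, Wnt signals are known for their roles in the outflow tract, the valve cushions and the growth of heart muscle. The genes described here are 39 protein-coding genes, chosen by symbol alone among 43346 Ensembl gene rows: 19 Wnt ligands, 10 frizzleds, the co-receptors Lrp5 and Lrp6, 4 Sfrp genes and 4 Dkk genes. All 39 had a row in both gene tables.

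The material was whole heart of B6NCrl mouse embryos at 12.5 days, with male and female embryos pooled and with no treatment, mutation or transgene named in the labels. The 2 libraries, labelled biological replicates 1 and 2, form 1 group, so there is no contrast between conditions, and no p-value is given. Each was prepared from 10 ng of RNA above 200 nt. They share 1 donor entry, and the labels do not say how many embryos each held, so the spread between the libraries may be partly technical. Estimated reads on mouse genes numbered 33480066 in replicate 1 and 30665239 in replicate 2. Where a gene has 0 reads, a level of up to 3 reads cannot be told from 0, which is 0.0896 and 0.0978 CPM (reads scaled to library size), for counting error only. Levels are in TPM, which scales reads by transcript length and library size, so genes can be compared within a library. In whole tissue, fewer cells of a type and less RNA per cell cannot be told apart.

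All 7 heart muscle markers were detected, from Nkx2-5 at 168 TPM to Actc1 at 9805 TPM, as were all 6 endocardial and endothelial, 5 epicardial and 5 cushion mesenchyme markers. Markers of some other cell types differed between the libraries. All 7 hepatocyte markers were lower in replicate 2, with a summed 239 TPM in replicate 1 and 67.5 TPM in replicate 2. The 6 lung and foregut markers summed to 2.43 and 5.34 TPM, of which only Epcam passed 1 TPM in both libraries. Nkx2-1 at 0.10 and 1.07 TPM and Sftpc at 0 and 0.93 TPM made most of that gap, while Foxa2 had 0.45 and 0.36 TPM. The 6 neural tube markers summed to 0.65 and 0.32 TPM, with Sox1, Olig2 and Neurog1 at 0. They rest on few reads, at most 16, for Pax6 in replicate 1.

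Of the 39 genes, 24 reached 1 TPM in each library and are called detected, against 57.5% of the 21461 nuclear protein-coding genes. The share among members, 61.5%, was near that background. A gene under 0.1 TPM in both libraries is called not detected: 6 members were, against 26.8% of protein-coding genes, and 9 lay between. The classes differed in their counts. Detected were 9 of 10 frizzleds, both co-receptors, 8 of 19 Wnt ligands, 3 of 4 Sfrp genes and 2 of 4 Dkk genes. The median over members of the mean level was 2.38 TPM, beside 3.64 TPM over all nuclear protein-coding genes. Sfrp1, Sfrp2 and Dkk3 held the highest levels and made up 62.2% of the summed TPM of all members in replicate 1 and 57.7% in replicate 2.

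**Figure D1:**
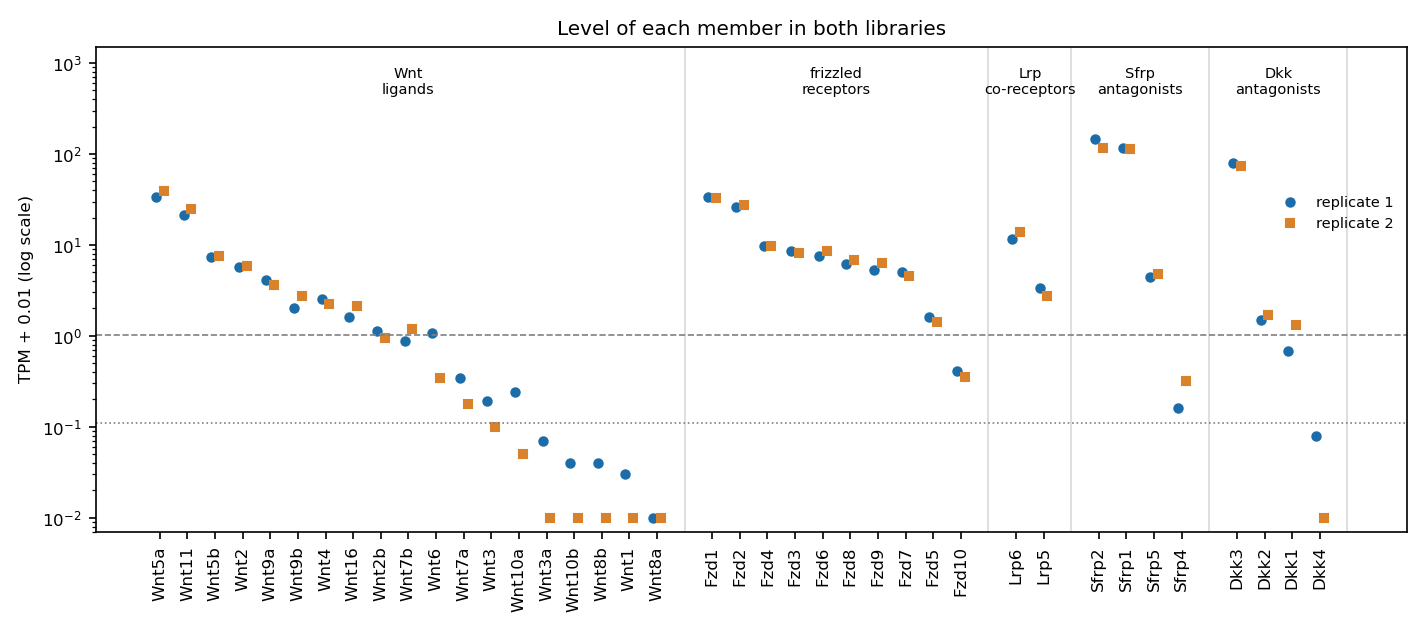
TPM + 0.01 on a log axis for each of the 39 genes in replicate 1 (circles) and replicate 2 (squares), by class; the dashed line marks 1 TPM and the dotted line 0.1 TPM. The Wnt ligands run from Wnt5a at 33.4 and 38.8 TPM down to Wnt8a at 0 in both libraries, while 9 of 10 frizzleds stay above 1 TPM.

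Among the ligands, Wnt5a and Wnt11 stood above the rest. Both are known mainly for signalling without beta-catenin, and both act in the outflow tract. Wnt5a (ENSMUSG00000021994.10; mm10 chromosome 14, 28504750 to 28527448, plus strand) had 33.4 TPM in replicate 1 and 38.8 TPM in replicate 2, from 3950 and 3651 reads. Wnt11 (ENSMUSG00000015957.7; chromosome 7, 98835112 to 98855195, plus strand) had 21.5 and 24.7 TPM, from 874 and 888 reads. Wnt5a was 1.56 ± 0.0171-fold above Wnt11 (SD, n = 2), and the libraries of the pair did not overlap. Over protein-coding transcripts only, which leaves out decay-type transcripts of Wnt11, the ratio was 3.12 in replicate 1 and 2.88 in replicate 2. Together they held 66.9% and 70.3% of the summed Wnt TPM, Wnt5a alone 40.7% and 43.0%. The mean of Wnt5a exceeded that of 82.1% of nuclear protein-coding genes, and the mean of Wnt11 that of 74.7%.

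Below these lay 6 further detected ligands. Wnt5b, the paralogue of Wnt5a, had 7.29 and 7.51 TPM, and Wnt5a was 4.88 ± 0.418-fold above it. Wnt2, a ligand described in the early heart and in lung mesenchyme, had 5.70 and 5.85 TPM. Its paralogue Wnt2b lay at the detection bound with 1.12 and 0.93 TPM. Wnt9a had 4.12 and 3.64 TPM, and Wnt9b had 2.02 and 2.74 TPM; Wnt9b is known in the endocardium of the valve regions. Wnt4 had 2.52 and 2.24 TPM, and Wnt16 had 1.62 and 2.13 TPM from 64 and 68 reads. In order of mean level, 7 of the 10 neighbouring ligand pairs with at least 20 reads on average did not overlap between libraries. The pairs Wnt9b and Wnt4, Wnt2b and Wnt7b, and Wnt7b and Wnt6 did overlap, so their order is not set by these libraries. Lack of overlap in 2 libraries does not settle the order of the other pairs, which were ranked by these same values. Wnt4 and Wnt16, counted as not overlapping, came as close as 2.24 and 2.13 TPM.

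The remaining ligands were low. Wnt7b had 0.86 and 1.19 TPM, Wnt6 1.06 and 0.33 TPM, Wnt7a 0.33 and 0.17 TPM, Wnt3 0.18 and 0.09 TPM, and Wnt10a 0.23 and 0.04 TPM. Not detected were Wnt1, Wnt3a, Wnt8a, Wnt8b and Wnt10b. Among them Wnt8a had no read in either library. The other 4 had between 1 and 4 reads in replicate 1 and none in replicate 2. Wnt1 and Wnt3a, the archetypal beta-catenin ligands of the dorsal neural tube and tail bud, were thus at the limit of what this depth can show.

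Some Wnt genes lie side by side in the genome, in 4 pairs within 100 kb. Wnt9a and Wnt3a start from opposite strands of chromosome 11, 16.2 kb apart, with 4.12 and 3.64 TPM for Wnt9a against 0.06 and 0 TPM for Wnt3a. Wnt9b and Wnt3 also lie on chromosome 11, 24.3 kb apart on opposite strands, with 2.02 and 2.74 TPM against 0.18 and 0.09 TPM. In both of these pairs every library of the Wnt9 gene was above every library of its neighbour. Wnt6 and Wnt10a lie 6.19 kb apart on the same strand of chromosome 1, and each had its lower level in replicate 2. Wnt10b and Wnt1, 11.7 kb apart on chromosome 15, were both not detected.

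For Wnt11 and Wnt5b, transcripts from distant starts shared the estimated RNA, which is why the sequences before these starts are shown. Wnt5a was also divided, between Wnt5a-201 at 49.0% and 42.1% and Wnt5a-202, which starts 6.66 kb further in, at 44.7% and 40.1%. No such sequence was at hand for Wnt5a. The sequences shown are the 250 bases upstream of each RefSeq start (GRCm38.p6), 5′ to 3′ on the gene's strand. Capitals mark ATCAAAG or its reverse complement CTTTGAT, a core recognised by TCF and LEF factors, and TATAAA, the TATA box core. Both motifs were searched on both strands, and they do not overlap in these windows. In the 19931 such windows of protein-coding genes, 2.75% held the TCF core and 11.1% the TATA core on either strand.
Wnt11 outer start, chr7:98834862-98835111, plus strand: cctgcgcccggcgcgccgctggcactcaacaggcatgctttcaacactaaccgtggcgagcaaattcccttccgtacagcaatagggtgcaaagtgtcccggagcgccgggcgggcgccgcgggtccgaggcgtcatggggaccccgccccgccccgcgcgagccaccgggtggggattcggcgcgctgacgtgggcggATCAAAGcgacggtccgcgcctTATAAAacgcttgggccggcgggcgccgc
Wnt11 inner start, chr7:98838595-98838844, plus strand: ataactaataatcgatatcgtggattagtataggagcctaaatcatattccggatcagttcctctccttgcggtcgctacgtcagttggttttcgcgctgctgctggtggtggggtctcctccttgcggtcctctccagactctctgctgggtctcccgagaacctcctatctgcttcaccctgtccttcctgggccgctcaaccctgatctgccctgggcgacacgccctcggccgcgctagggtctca
Wnt5b outer start, chr6:119544348-119544597, minus strand: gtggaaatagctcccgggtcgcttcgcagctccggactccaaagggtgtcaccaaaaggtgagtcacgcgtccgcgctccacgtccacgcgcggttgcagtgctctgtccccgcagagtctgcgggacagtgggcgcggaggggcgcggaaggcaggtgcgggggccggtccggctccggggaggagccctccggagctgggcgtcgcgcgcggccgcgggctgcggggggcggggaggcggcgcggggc
Wnt5b middle start, chr6:119467212-119467461, minus strand: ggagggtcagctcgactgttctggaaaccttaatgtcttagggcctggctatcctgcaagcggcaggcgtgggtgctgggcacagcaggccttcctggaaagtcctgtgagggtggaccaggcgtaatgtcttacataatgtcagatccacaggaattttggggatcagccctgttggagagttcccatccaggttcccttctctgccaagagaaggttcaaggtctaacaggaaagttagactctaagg
Wnt5b inner start, chr6:119449387-119449636, minus strand: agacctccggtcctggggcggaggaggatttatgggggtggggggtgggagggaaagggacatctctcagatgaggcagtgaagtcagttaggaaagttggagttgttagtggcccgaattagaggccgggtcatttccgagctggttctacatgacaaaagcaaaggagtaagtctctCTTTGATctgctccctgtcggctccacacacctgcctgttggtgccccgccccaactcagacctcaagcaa

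The Wnt11 starts are 3.73 kb apart. Transcripts within 100 bases of the outer start held 44.2% of Wnt11 TPM in replicate 1 and 43.0% in replicate 2, and those of the inner start held 55.8% and 57.0%. The split thus differed little between libraries. The outer window held 37 CpG dinucleotides, a TATA core 29 to 24 bases before the start and a TCF core 51 to 45 bases before it. The inner window held 16 CpG and neither motif. By annotated type, the coding transcript Wnt11-205 took 43.5 ± 0.0714% of Wnt11 TPM (SD, n = 2). Transcripts annotated as targets of nonsense-mediated decay, Wnt11-202 and Wnt11-204, took 41.3 ± 0.379% and 12.9 ± 0.751%. The RNA of the outer start was thus mostly Wnt11-202. Of the coding transcripts there, Wnt11-201 held 3.16% in replicate 1 and 1.46% in replicate 2, and Wnt11-203 was estimated at 0. Wnt11-205 and Wnt11-204 belong to the inner start.

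Wnt5b spreads over 3 starts. The 2 transcripts at the outer start held 65.9% and 81.4% of its TPM. The middle start, 77.1 kb further in, held 34.1% and 18.6%. The transcript of the inner start, 17.8 kb beyond, was estimated at 0 in both libraries. The outer window held 35 CpG, the middle one 4 and the inner one 7, with a TCF core in the inner window alone. The leading Wnt5b transcript changed between libraries: Wnt5b-203 had 46.2% and 32.2%, and Wnt5b-204, which starts 29 bases away, had 19.7% and 49.1%. These rest on 374 and 355 reads for the gene. Among the 12 detected members with several transcripts, Wnt5b was the exception, the other 11 having the same leading transcript in both libraries.

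Part of the difference in Wnt5a between libraries lay in a very short transcript. Per CPM, replicate 2 stood at 1.01 times replicate 1, with an exact binomial 95% counting interval of 0.964 to 1.06, so the reads of the gene did not differ beyond counting error. In TPM, replicate 2 was higher by 5.45. Of this, 4.60 TPM came from Wnt5a-204, an annotated noncoding transcript of 337 nt with 2.45 reads in replicate 1 and 25.6 in replicate 2. Over transcripts of 1000 nt or more, Wnt5a had 31.6 and 32.4 TPM. For Lrp6, of a difference of 2.43 TPM, 1.58 came from Lrp6-203, of 722 nt, with 20.4 and 39.5 reads. Unlike the reads of Wnt5a, those of Lrp6 had a counting interval above 1, at a CPM ratio of 1.08 (1.02 to 1.15), and its transcripts of 1000 nt or more had 10.1 and 10.9 TPM.

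**Figure D2:**
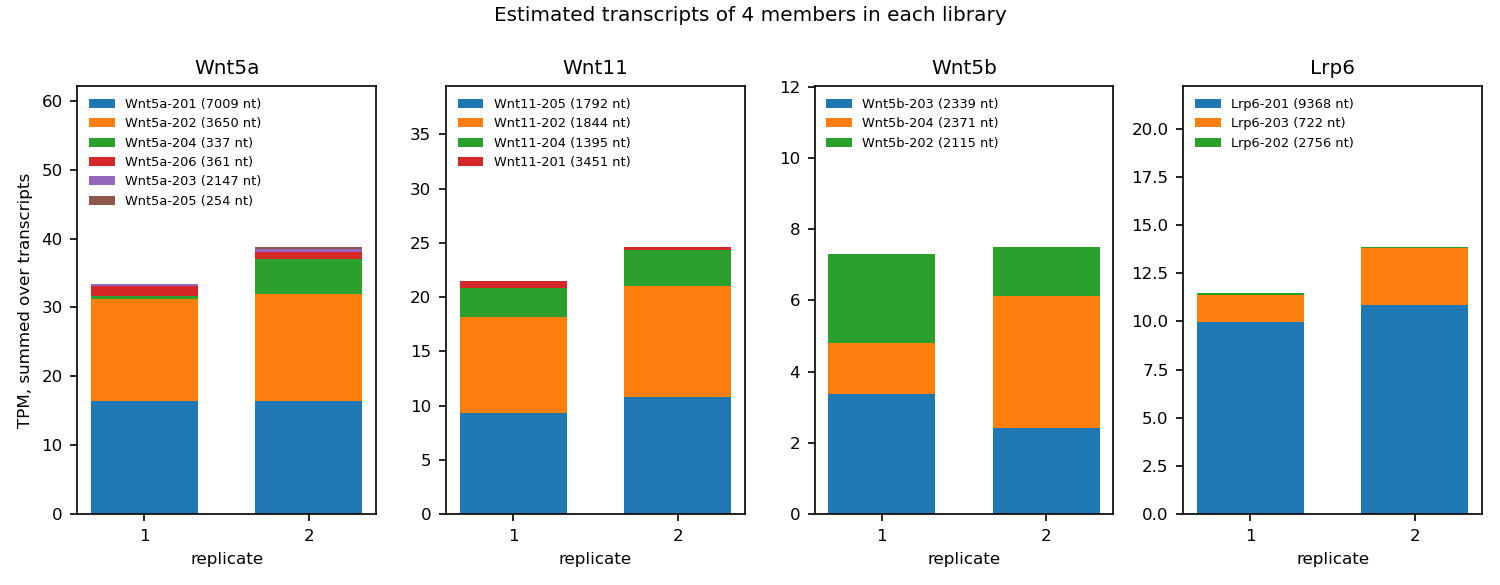
Stacked bars give the TPM of each annotated transcript of Wnt5a, Wnt11, Wnt5b and Lrp6 in replicates 1 and 2, with transcript lengths in the legend. The Wnt5a bars differ mainly by Wnt5a-204, from 0.44 to 5.04 TPM, and the Wnt5b bars keep their height while their parts change.

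Frizzleds, the seven-pass receptors of Wnts, were spread more evenly than the ligands, and Fzd1 and Fzd2 led. Fzd1 (ENSMUSG00000044674.5; chromosome 5, 4753839 to 4758035, minus strand) had 33.7 TPM in replicate 1 and 32.8 TPM in replicate 2. Fzd2 (ENSMUSG00000050288.6; chromosome 11, 102604396 to 102608058, plus strand) had 26.2 and 27.5 TPM. The pair did not overlap, Fzd1 being 1.24 ± 0.0681-fold above Fzd2. Together they held 57.5% and 56.8% of the frizzled sum. Fzd7, their close paralogue, was far lower at 5.05 and 4.50 TPM, and Fzd1 was 6.98 ± 0.434-fold above it.

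The other frizzleds were lower than Fzd2. Fzd4, the receptor of norrin in vessels as well as of Wnts, had 9.70 and 9.73 TPM. Fzd3 and Fzd6, known from planar cell polarity, had 8.45 and 8.04 TPM and 7.55 and 8.66 TPM, and their libraries overlapped. Fzd8 had 6.17 and 6.86 TPM, overlapping across libraries with Fzd9 at 5.30 and 6.30 TPM, though Fzd8 was higher within each library. Fzd5 was low at 1.59 and 1.40 TPM, and Fzd10 fell below the bound at 0.40 and 0.34 TPM, from 30 and 23 reads. Of the 9 neighbouring pairs in the order of frizzleds, 7 did not overlap, with the same limit as for the ligands. Summed over the class, frizzleds had 104 and 106 TPM against 82.1 and 90.4 TPM for the ligands, a ratio of 1.22 ± 0.0657.

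Lrp6 (ENSMUSG00000030201.11; chromosome 6, 134446476 to 134566965, minus strand) led Lrp5 as co-receptor. Lrp6 had 11.5 TPM in replicate 1 and 13.9 TPM in replicate 2, and Lrp5 had 3.38 and 2.70 TPM. Lrp6 was 3.39-fold above Lrp5 in replicate 1 and 5.14-fold in replicate 2, so the direction was the same but the size was not.

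Sfrp2 and Sfrp1 were the highest of all 39 genes. Sfrp2 (ENSMUSG00000027996.9; chromosome 3, 83766321 to 83774316, plus strand) had 146 TPM in replicate 1 and 115 TPM in replicate 2. Sfrp1 (ENSMUSG00000031548.7; chromosome 8, 23411502 to 23449632, plus strand) had 117 and 112 TPM. Sfrp2 was 1.25-fold above Sfrp1 in replicate 1 and 1.03-fold in replicate 2. The direction was thus the same within each library, but their values overlapped across libraries and the size of the gap is not set. Sfrp2 and Sfrp1 exceeded 95.3% and 94.4% of nuclear protein-coding genes. Together they held 98.3% and 97.8% of the summed TPM of the Sfrp members. Sfrp5, known from the cardiac inflow region, had 4.44 and 4.81 TPM, with Sfrp1 24.8 ± 2.17-fold above it. Sfrp4 had 0.15 and 0.31 TPM, from 6 and 11 reads.

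Among Dkk genes, Dkk3 stood nearly alone. Dkk3 (ENSMUSG00000030772.5; chromosome 7, 112116017 to 112159057, minus strand), a divergent member not known as a classical Lrp inhibitor, had 79.1 TPM in replicate 1 and 74.4 TPM in replicate 2. It took 97.3% and 96.2% of the Dkk sum. The Lrp-binding members were low: Dkk2 had 1.47 and 1.67 TPM, Dkk1 had 0.67 and 1.29 TPM, and Dkk4 had 0.07 and 0 TPM. The sum of Sfrp and Dkk genes was 4.25-fold the Wnt sum in replicate 1 and 3.42-fold in replicate 2. Without Dkk3 the ratios were 3.29 and 2.60, and over protein-coding transcripts the mean ratio with Dkk3 was 4.87. For Dkk1, Dkk2 and Dkk4 alone they were 0.0269 and 0.0328. These are ratios of RNA and say nothing of protein.

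The libraries were compared over the 29 members with a mean of 20 reads or more. On the log2(TPM + 0.1) scale, the median difference, replicate 2 over replicate 1, was 0.04, beside 0.02 over 13529 protein-coding genes. A difference of 1.5-fold either way was passed by 2 members, against 3.58% of protein-coding genes. Wnt6 was the 1 lower in replicate 2, against 2.04%, and Dkk1 the 1 higher, against 1.54%. By reads alone, the counting interval of the CPM ratio lay apart from 1 for 10 of the 29 members, against 23.4% of protein-coding genes. Of these, 5 were higher in replicate 2, against 12.4%, and 5 lower, against 11.1%. An interval narrows as reads grow, and members were not matched to other genes on read number, so these shares are not at like depth. Counting intervals leave out the spread between embryos and library preparations.

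Among the 3 highest members, Sfrp2 differed most between libraries. Its reads numbered 6534 and 4663, a CPM ratio of 0.779 (interval 0.75 to 0.809). Dkk3 at 0.928 (0.894 to 0.963), Sfrp1 at 0.945 (0.92 to 0.97) and Lrp5 at 0.834 (0.712 to 0.977) were also lower in replicate 2. Wnt6 had the widest gap, with 46 and 14 reads and a ratio of 0.332 (0.169 to 0.615). Dkk1, a secreted Lrp inhibitor, was higher in replicate 2 with 37 and 64 reads, a ratio of 1.89 (1.24 to 2.91). Wnt9b stood at 1.34 (1.11 to 1.62), Fzd6 at 1.13 (1.02 to 1.26), Wnt11 at 1.11 (1.01 to 1.22) and Lrp6 at 1.08 (1.02 to 1.15). All 7 hepatocyte markers were lower in replicate 2, the summed lung and foregut markers were higher (values above), red cell markers summed to 37762 and 33685 TPM, and their part in these differences was not tested. Summed epicardial markers were 207 and 204 TPM and cushion markers 308 and 315 TPM. Endocardial and endothelial markers summed to 239.9 and 254 TPM, all 6 being higher in replicate 2. Heart muscle markers summed to 29279.9 and 29373 TPM, macrophage markers to 109 and 116 TPM and skeletal muscle markers to 5.03 and 5.42 TPM. The part of these sets was not tested either.

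**Figure D3:**
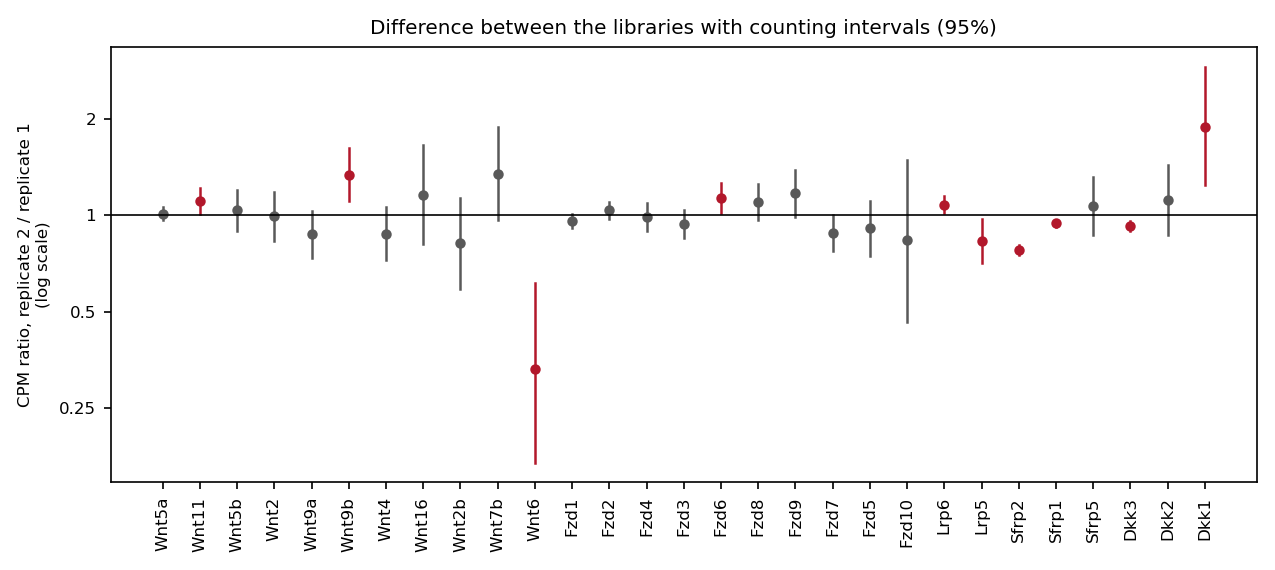
Points give the CPM ratio of replicate 2 over replicate 1 on a log axis for the 29 members with at least 20 reads on average, with exact binomial 95% counting intervals as lines; those apart from 1 are red. Wnt6 at 0.332 and Dkk1 at 1.89 lie farthest out, and Sfrp2 at 0.779 is narrow.

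The scarce ligands mostly had fewer reads in replicate 2. The 8 Wnt genes with a mean under 20 reads had 54 reads in all in replicate 1 and 19 in replicate 2, a CPM ratio of 0.384 (0.215 to 0.659). Of these 8, 7 had fewer reads in replicate 2 and Wnt8a had none in either. With Sfrp4, which had more reads in replicate 2, and Dkk4, all 10 scarce members had 62 and 30 reads, a ratio of 0.528 (0.33 to 0.83). The sum rests mostly on Wnt7a, with 24 and 11 reads, and Wnt3, with 13 and 6. Over all 7932 protein-coding genes under 20 reads, the same ratio was 0.895 (0.877 to 0.913), with 1980 genes fewer and 1325 more in replicate 2. Unlike the ratios, the numbers of genes with fewer or more reads are not scaled to library size, which was smaller in replicate 2. Neural tube markers summed to 0.65 and 0.32 TPM, a gap made by Pax6, with 16 and 7 reads, and Neurog2, with 10 and 0. Pax3 had 0.08 and 0.09 TPM, and Sox1, Olig2 and Neurog1 had 0 in both libraries. Hepatocyte markers were lower in replicate 2. The part of either marker set in the difference of the scarce ligands was not tested.

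The rest of the pathway was largely present: 53 of 65 listed genes outside the members were detected, beside the 57.5% of protein-coding genes given above. For release of Wnts, the carrier Wls had 97.1 and 97.9 TPM, the acyltransferase Porcn, which adds the lipid, 2.41 and 3.49 TPM, and the extracellular deacylase Notum 3.85 and 4.19 TPM. R-spondins keep frizzleds at the surface by removing Rnf43 and Znrf3. Of 9 genes of this branch 5 were detected, led by Rspo3 at 15.4 and 16.5 TPM, its receptor Lgr4 at 12.4 and 14.5 TPM, Znrf3 at 6.18 and 5.91 TPM and Rspo1 at 6.04 and 5.69 TPM. Rspo4 was not detected. Among 10 other inhibitors 5 were detected, led by the Dkk receptor Kremen1 at 32.8 and 34.2 TPM. Next came Frzb at 7.65 and 7.09 TPM, a gene of the Sfrp family under another symbol. The symbol rule leaves Frzb out of the Sfrp sums, shares and ratios above. Tpbg had 6.83 and 7.11 TPM and Wif1, which binds Wnts, 3.01 and 2.35 TPM. Draxin was not detected.

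Receptors outside the frizzleds and the planar polarity genes were detected in 12 of 13 cases. They were led by Ptk7 at 57.7 and 55.2 TPM, Prickle1 at 34.5 and 35.5 TPM, the Wnt5a receptor Ror2 at 23.2 and 25 TPM and Vangl1 at 23.1 and 21.6 TPM. Celsr3 was not detected. Inside the cell, 10 of 11 genes of beta-catenin and its destruction complex were detected, with Ctnnb1, the beta-catenin gene, at 268 and 281 TPM and Csnk1a1 at 192 and 197 TPM. Gsk3b had 38.3 and 38.5 TPM and Dvl3 24.9 and 27.4 TPM. All 12 nuclear factors were detected. The beta-catenin partners Pygo2 and Bcl9 had 29.6 and 30.5 TPM and 24.3 and 25.9 TPM, and the co-repressor Tle2 21.02 and 25 TPM. Tcf7l2 led the TCF and LEF factors at 47.4 and 51.5 TPM, above Lef1 at 16.1 and 18.2 TPM, Tcf7l1 at 15.2 and 16.4 TPM and Tcf7 at 5.15 and 5.25 TPM.

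Known direct targets of beta-catenin were detected in 10 of 12 cases, beside 57.5% of protein-coding genes. Of these targets, Lef1, Znrf3, Notum, Rnf43 and Lgr5 also belong to the lists above, so this count is not separate from theirs. Ccnd1 and Myc, which answer to many other signals, had 72.6 and 64.9 TPM and 27.5 and 31.2 TPM. Tnfrsf19 had 16.0 and 16.3 TPM and Nkd1, a feedback inhibitor, 10.9 and 11.3 TPM. Axin2, the target most used as a readout of the pathway, had 1.96 and 1.68 TPM, from 119 and 91 reads. Sp5 at 0.30 and 0.35 TPM and Lgr5 at 0.52 and 0.47 TPM lay below the detection bound.

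**Figure D4:**
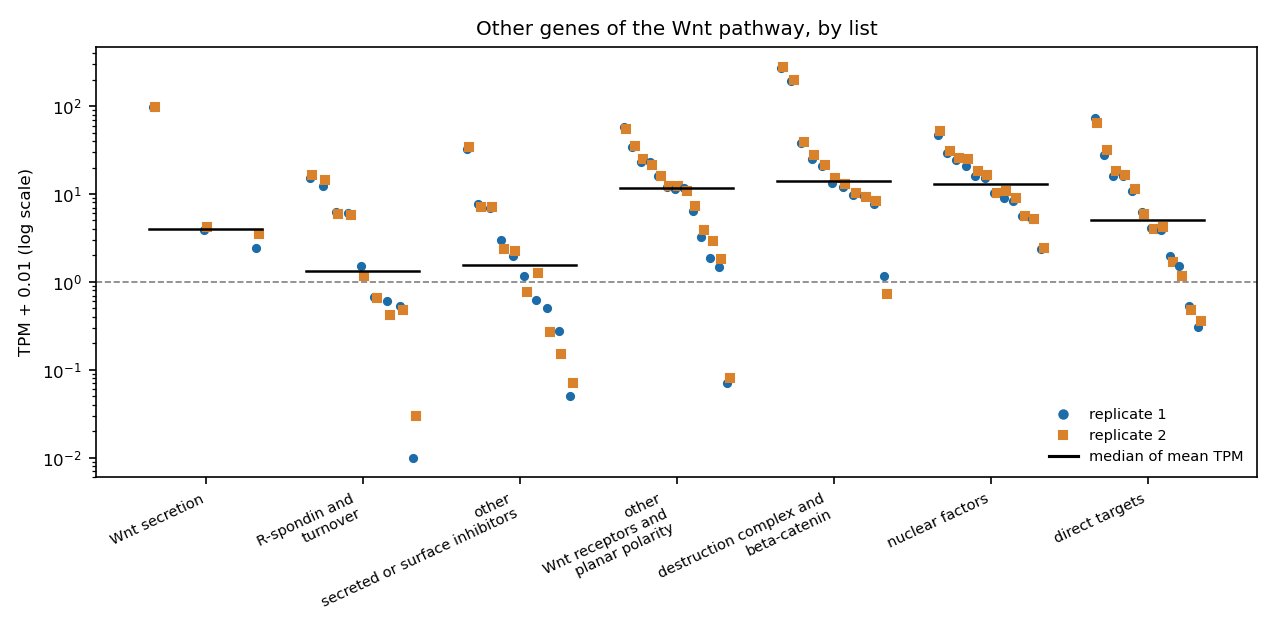
TPM + 0.01 on a log axis for the other pathway genes by list, with replicate 1 as circles, replicate 2 as squares, black lines at each list's median and a dashed line at 1 TPM. Ctnnb1 at 268 and 281 TPM is the highest point, and the R-spondin list has the lowest median at 1.33 TPM.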

How the data were processed

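The labels name mirVana for extraction and cite a SMARTer low-input cDNA manual. The sources used here do not give the strandedness, aligner or quantifier. Per the file headers and the deposited notes, reads were quantified on mm10 with GENCODE M4. Expected counts, as deposited, estimate reads and need not be whole, and the deposited TPM covers all listed rows, spike-ins included. The deposited FPKM served as an alternative. The deposited percent values of transcripts in genes were not used, since shares were recomputed from TPM. The deposited posterior SD of reads was 0 in both libraries for 36 of 39 members.

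Gene IDs without version were matched to GENCODE M21 on the same build (42462 of 43346). Members were all protein-coding genes whose symbol is Wnt, Fzd, Sfrp, Dkk or Lrp with the numbers of those families. Every member is named. Of each pathway list the 4 highest and any not detected are named, and Axin2, Nkd1, Sp5, Lgr5, Tcf7l1 and Tcf7 were added after their values were seen. Members and lists were chosen with earlier results of these data known. Wnt gene pairs within 100 kb were taken as neighbours.

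Intervals are exact binomial at 95% on rounded counts. The counting step was tested on simulated data with counting error alone, which says nothing of the spread between real libraries. Values were computed with scipy 1.17.1, pandas 2.3.3 and numpy 2.4.6 under Python 3.11.15 and drawn with matplotlib 3.10.9. As alternatives, edgeR 4.0.16 gave TMM factors and DESeq2 1.42.0 gave size factors in R 4.3.3. Further alternatives covered thresholds, pseudocounts, units, filters, transcripts summed and each library alone.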

Additional observations from a re-analysis of the deposited data

How the results depend on the processing

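Of 64 alternative values, 12 moved by over 1.5 times for a count or by more than the SD between libraries for a share or ratio. The other 52 include the median difference between libraries, which was judged against the SD over members. They also include settings that could not move. With 2 libraries, leaving 1 out cannot shift a share or ratio by more than the SD between libraries. FPKM is proportional to TPM within a library, so it cannot change shares, ratios or leading transcripts beyond rounding. The Wnt5a share of the Wnt sum, 41.8%, was 60% by expected counts with no length scaling and 43.5% over detected members only. Over transcripts of 1000 nt or more it was 39%, and over protein-coding transcripts only, where Wnt11 loses its decay-type transcripts, 46.9%. That setting also drops a Wnt2 transcript with no annotated type here, which held 25.3% of Wnt2 TPM in replicate 1 and 33.5% in replicate 2. The Wnt5a to Wnt11 ratio, 1.56, was 1.39 over transcripts of 1000 nt or more and 3 over protein-coding transcripts. Both settings were chosen after seeing the data. By expected counts the Fzd1 share of the frizzled sum was 34.1% against 31.6%. Over protein-coding transcripts the ratio of Sfrp and Dkk genes, Dkk3 included, to Wnt ligands was 4.87 against 3.84. The 2 members that differed 1.5-fold between libraries became 1 at 2-fold, 7 with no filter on reads, 0 at a mean of 100 reads or more and 1 with a pseudocount of 1. Both were thus genes of few reads. The median difference of members, 0.04, was -0.06 with no filter and -0.02 with TMM or DESeq2 factors, so its sign turns. With replicate 1 or replicate 2 left out, 26 members were detected against 24. No paired analysis was possible because the libraries form 1 group. Below about 20 reads, a member's level is limited by depth.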

Other observations

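RefSeq windows of 250 bases before the start were at hand for 25 members, with 28 starts. Their median observed to expected ratio of CpG was 0.758, beside 0.556 over the 19931 windows of protein-coding genes. The windows of the 4 members that were not detected and have one (Wnt1, Wnt3a, Wnt8b and Wnt10b) had a median of 0.628, beside 0.166 over the windows of all protein-coding genes not detected. For detected genes the medians were 0.753 for members and 0.721 for all. With so few members, these values describe the windows and carry no test. The TATA core stood in 4 of the 28 member windows (14.3%), beside 11.1% of all: 29 to 24 bases before the outer Wnt11 start, 32 to 27 before that of Dkk2, 54 to 49 before that of Dkk1 and 202 to 197 before that of Fzd1.

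Several members overlap genes of the opposite strand, and the sources used here do not say whether the libraries keep strand. Wnt5b overlaps Fbxl14 over 2963 bases of the gene spans, with 3.34 and 3.22 TPM for Fbxl14. Wnt5a overlaps the antisense gene Gm2670, at 1.02 and 1.17 TPM. Sfrp2, which was lower in replicate 2, overlaps the antisense gene Gm26771, at 0.39 and 1.07 TPM from 9.14 and 22.5 reads.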
